A study of Mus musculus with 8 samples.

Results

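Mouse pancreatic cancer cells that were exposed to extracellular vesicles (EVs) of non-activated T cells were compared with cells that received phosphate-buffered saline (PBS). The comparison used 4 of the 8 libraries of the series, 2 with non-activated T cell EVs (NTEVs) and 2 with PBS, and took every gene that passed an expression filter, 15197 of the 42687 genes in the count table. The cells were KPCY cells, a single clone of low immunogenicity taken from a mouse pancreatic tumour model that carries Trp53LSL-R172H/+ together with Pdx1-Cre and the reporter Rosa26YFP/YFP, in which the Pdx1 promoter directs Cre to the pancreatic lineage. All groups share this background, and the genotype field of the labels reads WT. NTEVs were given at 30 µg/mL. The other 2 groups received ATEVs, read here by contrast as EVs of activated T cells, at 15 µg/mL, either as prepared or after pretreatment with Baseline-ZERO DNase. The labels set 5 µg/mL of EV DNA against the NTEV and untreated ATEV doses, read here as holding for both, so those groups differed in vesicle dose but not in this DNA dose. In every group cells were seeded again after each overnight exposure, for 8 repeats, so the PBS cells went through the same passages without vesicles. No group with EVs of another cell type was analysed here.

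EVs are membrane-bound particles that cells shed and that other cells can take up, and they carry protein, lipid, RNA and DNA of the cell that made them. T cells release them at rest and in larger amounts after activation of the T cell receptor. A vesicle can act on a recipient cell through ligands on its surface, through its cargo after uptake, or through sensors of foreign nucleic acid, which raise interferon-stimulated genes. Cells can also take up much of their surroundings by macropinocytosis, the engulfment of fluid.

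Gene counts per library were 52451398 and 34385326 with PBS and 51749114 and 40115262 with NTEVs. The labelled cell type was checked against 10 ductal epithelial markers, which all passed the filter and summed to 10314 to 11845 CPM (counts per 1000000 of the scaled library size) in these 4 libraries. Of 18 T cell markers 2 passed the filter and 5 had no count in the PBS and NTEV libraries, with sums of 11.2 and 12.3 CPM with PBS and 8.85 and 6.57 CPM with NTEVs. Whether library 1 and library 2 of a group stem from separate cultures is not in the labels. The p-values therefore measure only the spread between libraries, which may be technical.

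Few protein-coding genes passed edgeR between NTEV and PBS cells, while DESeq2 called 704. With 2 libraries per group, a gene that did not pass may still differ. By edgeR's quasi-likelihood test, with p-values adjusted over all genes tested, 53 of 12738 protein-coding genes passed a threshold of 0.05, which is 0.416% of those tested, and 42 of them were higher (0.33% of those tested) and 11 lower (0.0864%) with NTEVs. Over all classes 169 genes passed, or 1.11%, with 107 higher (0.704%) and 62 lower (0.408%). Before adjustment, 10.3% of all genes were higher and 8.85% lower with a p under 0.05. Of the 169, 104 were pseudogenes and are described apart. Among the protein-coding genes with a name, a mean of at least 2 CPM (a log2 CPM of 1) and no overlap between the groups, 38 rose and 11 fell. The rises included many genes of very long transcripts, among them the perlecan gene Hspg2, the nuclear linker gene Syne2, the plakin genes Dst and Plec and the histone methyltransferase genes Kmt2a, Kmt2c and Kmt2d. The largest fall was that of Lars2, the mitochondrial leucyl-tRNA synthetase, and the others included a thioesterase, 2 genes of membrane traffic and a caveolin. The 4 other genes that passed were Ptger1, which was low, and the predicted genes Gm38394, Gm20721 and Gm12117, which were noticed after their values were seen.

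Among membrane and matrix proteins the widest rise was that of Fam57b, a membrane protein linked to ceramide synthesis. It was at 0.0971 and 0.334 CPM with PBS and 2.35 and 3.56 CPM with NTEVs (log2 fold change 3.85 ± 0.66 SE, edgeR adjusted p = 0.0499). The PBS values rest on 16 counts in all, so the size of this rise is imprecise. Pkhd1l1, a large membrane protein related to fibrocystin, was at 118 and 111 CPM with PBS and 307 and 420.3 CPM with NTEVs (1.66 ± 0.25 SE, edgeR adjusted p = 0.0349). Hspg2 codes for perlecan, a proteoglycan of basement membranes, and was at 359 and 351 CPM and 817 and 1039 CPM in that order (1.39 ± 0.18 SE, edgeR adjusted p = 0.0244). In each of these genes the lower NTEV library lay above the higher PBS library by more than the PBS libraries differed. Notch1 codes for a receptor that binds ligands on neighbouring cells and stood at 63.3 and 49.6 CPM with PBS and 115 and 150.3 CPM with NTEVs (1.23 ± 0.18 SE, edgeR adjusted p = 0.0319). Scarf2, a scavenger receptor of the cell surface, stood at 41.0 and 40.3 and 86.6 and 104 CPM (1.23 ± 0.18 SE, edgeR adjusted p = 0.0319). Lmtk3, a membrane-bound kinase, stood at 6.31 and 6.72 and 14.4 and 20.5 CPM (1.42 ± 0.24 SE, edgeR adjusted p = 0.0455). The PBS values of Scarf2 and Lmtk3 lay close together, and the NTEV values were spread more widely.

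Cytoskeletal and scaffold genes formed a further set of rises. Syne2 codes for nesprin-2, which ties the nuclear envelope to the cytoskeleton, and was at 54.2 and 59.8 CPM with PBS and 129 and 140.3 CPM with NTEVs (1.24 ± 0.13 SE, edgeR adjusted p = 0.0109). Dst codes for dystonin, a plakin that joins intermediate filaments to hemidesmosomes, and was at 189 and 205 and 409.8 and 493 CPM (1.20 ± 0.15 SE, edgeR adjusted p = 0.0208). Akap13, an anchoring protein of protein kinase A, was at 52.2 and 43.9 and 99.7 and 125 CPM (1.23 ± 0.18 SE, edgeR adjusted p = 0.0319). All NTEV values in these genes were above all PBS values, which the choice of named genes required. Smaller rises, given as log2 fold changes, were those of the plakin Plec (1.04), the scaffold protein Ahnak (1.02), the dynein heavy chain Dync1h1 (1.01), the ciliary rootlet protein Crocc (1.00), the dystrophin relative Utrn (0.97), the Golgi tether Golgb1 (0.90), the guanine nucleotide exchange factor Trio (0.77) and the centrosomal protein Cep350 (0.77). The receptor Notch2 rose by 0.79, Nbeal2, a protein of granule formation, by 0.92, and Fryl by 0.81.

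Genes of chromatin and transcription made up the third set. Kmt2d, a methyltransferase that marks enhancers, was at 48.1 and 64.2 CPM with PBS and 125 and 129 CPM with NTEVs (1.18 ± 0.17 SE, edgeR adjusted p = 0.0337). Isx, an intestinal homeobox factor and the shortest transcript among the rises, was at 14.3 and 10.7 and 33.3 and 26.9 CPM (1.27 ± 0.21 SE, edgeR adjusted p = 0.0455). For Kmt2d the NTEV libraries were closer to each other than the PBS libraries were, and for Isx NTEV library 1 was the higher one. The related methyltransferases Kmt2c and Kmt2a rose by 1.00 and 0.99, the acetyltransferase Ep300 by 0.67, the acetyltransferase scaffold Trrap by 0.85, the corepressor Spen by 0.85, and the transcription factors Zbtb20 and Zfhx3 by 1.13 and 0.85. Tnrc18, Prr12 and Gse1, nuclear proteins, rose by 0.91, 0.87 and 0.72. Of the ubiquitin ligases, Hectd4 was at 45.7 and 45.2 CPM with PBS and 94.5 and 109 CPM with NTEVs (1.16 ± 0.12 SE, edgeR adjusted p = 0.0115), while Rnf213 and Ubr4 rose by 1.10 and 0.95. Gigyf1, a partner in translational repression, rose by 1.07 and Prrc2c by 0.73. These sets by role were drawn up after the values were seen and carry no test of their own.

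The falls were fewer, and the PBS and NTEV libraries did not overlap in any of the 11, which the choice of named genes required. Lars2 was at 879 and 1000.3 CPM with PBS and 171 and 207 CPM with NTEVs and fell by 2.31 ± 0.16 SE on the log2 scale (edgeR adjusted p = 0.00368). The 18 other mitochondrial aminoacyl-tRNA synthetases tested ranged from -0.68 to 0.28 in log2 fold change, and none of them passed edgeR (the list had unadjusted p-values under 0.05 for 1 higher gene and 1 lower, Lars2 itself, and DESeq2 called 1). Gm15564, a long noncoding RNA picked out after its values were seen, was at 21.6 and 28.1 CPM with PBS and 2.54 and 3.46 CPM with NTEVs (edgeR adjusted p = 0.00776), a fall like that of Lars2 in these libraries.

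Lypla1, a thioesterase that removes palmitate from proteins, was at 79.4 and 85.4 CPM with PBS and 32.0 and 25.4 CPM with NTEVs and fell by 1.52 ± 0.17 SE (edgeR adjusted p = 0.0148). Ap1s2, a subunit of the AP-1 clathrin adaptor, was at 19.2 and 24.6 and 9.48 and 6.67 CPM and fell by 1.44 ± 0.23 SE (edgeR adjusted p = 0.0419). Vamp7, a SNARE of late endosomes and lysosomes, was at 111 and 114 and 50.6 and 47.3 CPM and fell by 1.20 ± 0.12 SE (edgeR adjusted p = 0.00986). Vamp7 had the closest replicates of these 3 genes. Cav2, a caveolin, was at 305 and 368 CPM with PBS and 173 and 136 CPM with NTEVs and fell by 1.12 ± 0.16 SE (edgeR adjusted p = 0.0335). Its partner Cav1, which forms the caveolar coat, was at 248 and 268 and 164 and 125 CPM without passing (-0.83 ± 0.19 SE, edgeR adjusted p = 0.107). Over 9 caveolar genes 1 passed, Cav2, and the median log2 fold change was -0.16. Without NTEV library 2 this median was 0.02.

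Of the other falls, Ppp1cb, a catalytic subunit of protein phosphatase 1, was at 419.5 and 447 CPM with PBS and 232 and 219 CPM with NTEVs (-0.94 ± 0.12 SE, edgeR adjusted p = 0.0208). Ppp3r1, the regulatory subunit of calcineurin, was at 109.5 and 117 and 70.9 and 63.7 CPM (-0.75 ± 0.12 SE, edgeR adjusted p = 0.0442). Cops2, a subunit of the COP9 signalosome, was at 183 and 175 and 104 and 96.1 CPM (-0.84 ± 0.14 SE, edgeR adjusted p = 0.0423). In all 3 the libraries of a group differed by far less than the groups did. Rap2c, a small GTPase, was at 61.5 and 61.4 CPM with PBS and 36.1 and 35.6 CPM with NTEVs (-0.78 ± 0.12 SE, edgeR adjusted p = 0.0407). Abracl, a small protein linked to actin, was at 53.5 and 57.5 and 30.9 and 30.2 CPM (-0.86 ± 0.14 SE, edgeR adjusted p = 0.0410). Rps29, a protein of the small ribosomal subunit, was at 277 and 295 and 148 and 158 CPM (-0.90 ± 0.15 SE, edgeR adjusted p = 0.0426). Rps29, Lypla1 and Abracl have 6, 2 and 1 near-identical copies. Among the rises Dst has 2, and Notch2, Kmt2c, Tnrc18, Prrc2c, Rnf213 and Fryl have 1 each. The way reads were divided among copies can bear on the values of all these genes. The search for copies started from coding sequence only, so shared untranslated sequence, in Lars2 as in any other gene, was not screened.

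**Figure D1:**
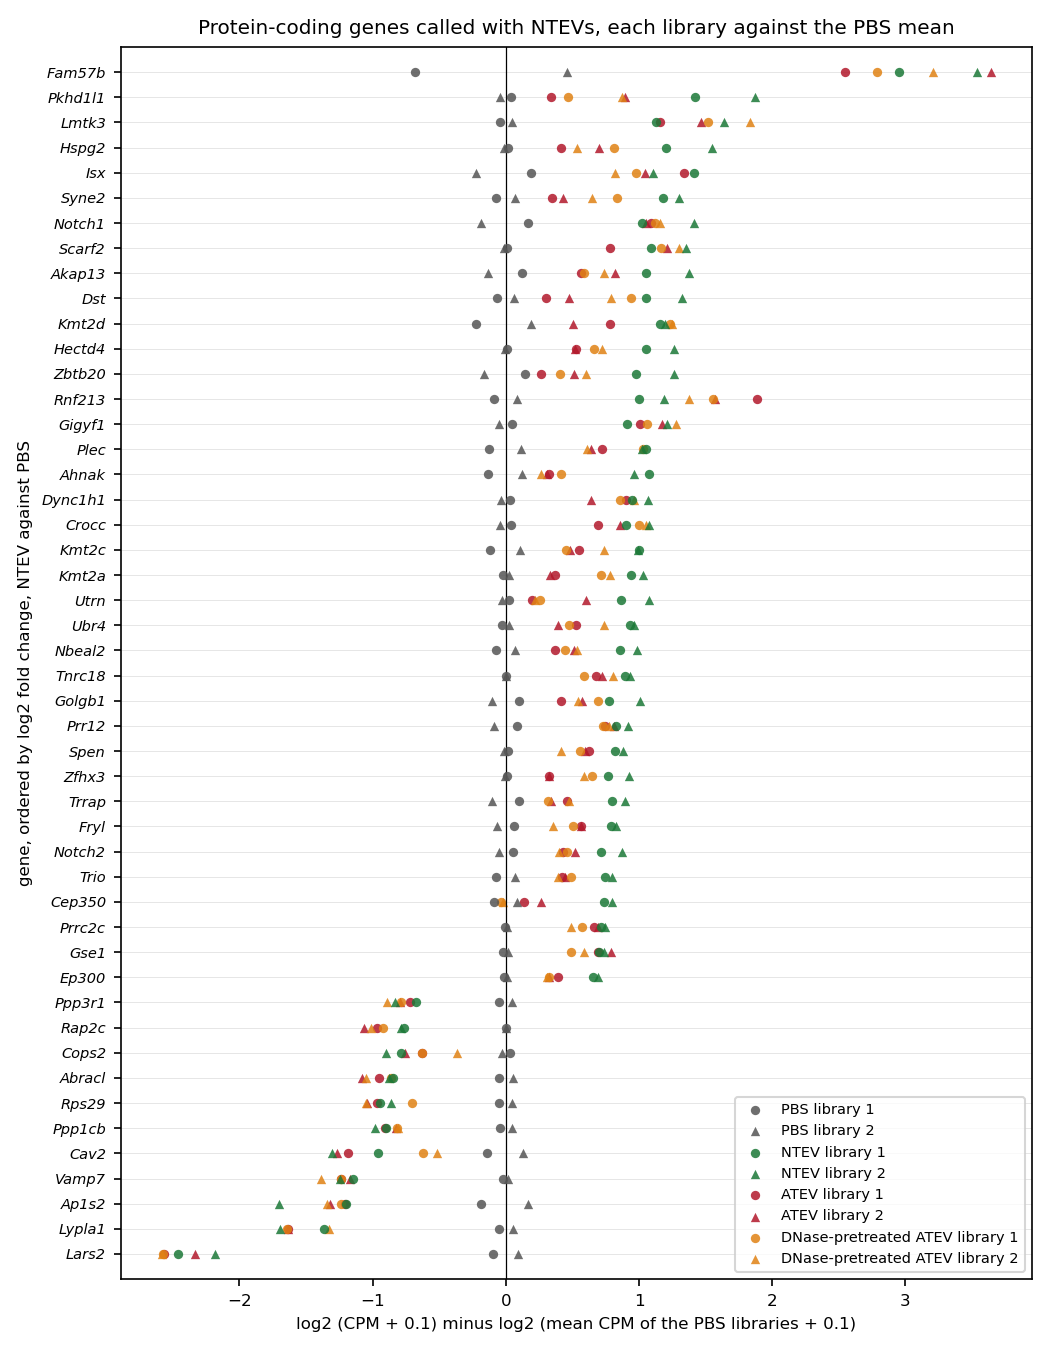
Of the 49 named protein-coding genes that passed with NTEVs, 48 are shown in rows ordered by log2 fold change, with each point 1 of the 8 libraries as log2 (CPM + 0.1) minus the log2 of the PBS mean plus 0.1. The green NTEV points lie away from the grey PBS points in every row, which the choice of genes without overlap required. Lars2 at the bottom and Fam57b at the top stand farthest from 0.

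These calls rest on small groups. The 49 genes were chosen for no overlap between groups, so their direction could hardly change when 1 library was left out. All 49 genes kept their direction in each fit that left out a PBS or NTEV library, but Lars2 alone passed without PBS library 1 and without either NTEV library, and 0 protein-coding genes passed edgeR without PBS library 2 (889 had an unadjusted p under 0.05 there, and the edgeR adjusted p of Lars2 was 0.0542). In a fit of protein-coding genes alone 1 gene passed, Lars2, while DESeq2 called 704 protein-coding genes, with all 49 among them.

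The rises and falls differed in what their transcripts are like. The median transcript length was 12340 bases among the 38 rises and 3029 bases among the 10 falls with a known length, against 2946 bases over all protein-coding genes tested. Of the 38 rises 35 had a transcript of at least 5000 bases and 25 of at least 10000. The falls were poor in G and C, with a median GC content of 39.3% and 8 of 10 under 45%, against 53.6% among the rises and 50.5% over all protein-coding genes. Among all 262 protein-coding genes with transcripts of at least 10000 bases, 208 were higher with NTEVs, 26 of them passed as higher and 0 as lower by edgeR, and the median log2 fold change was 0.48.

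The same gradients ran through genes that did not pass. From the shortest to the longest quintile of protein-coding transcripts the median log2 ratio to the mean of the PBS libraries went from -0.13 to 0.16 in NTEV library 1 and from -0.12 to 0.14 in NTEV library 2. From the lowest to the highest quintile of GC content it went from -0.22 to 0.16 in NTEV library 1 and from -0.34 to 0.29 in NTEV library 2. Between the PBS libraries it went from 0.07 to -0.02 over length and from 0.04 to 0.01 over GC content. Between the NTEV libraries (library 2 over library 1) it went from 0.01 to -0.03 over length but from -0.12 to 0.11 over GC content (rho 0.203), so a GC gradient also ran between libraries of the same group. Across 12732 genes, which are not independent replicates and share these libraries, Spearman's rho with the log2 fold change was 0.172 for length and 0.383 for GC content. Protein-coding genes of high and of low GC content both showed the length gradient, with rho of 0.275 at or above the median GC content and 0.262 below it. With offsets for length and GC content in the edgeR fit, 6 protein-coding genes passed, and of the 48 named genes with a value 3 did, all falls: Lars2, Lypla1 and Ppp1cb. All 48 kept their direction, at edgeR adjusted p-values of up to 0.959.

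**Figure D2:**
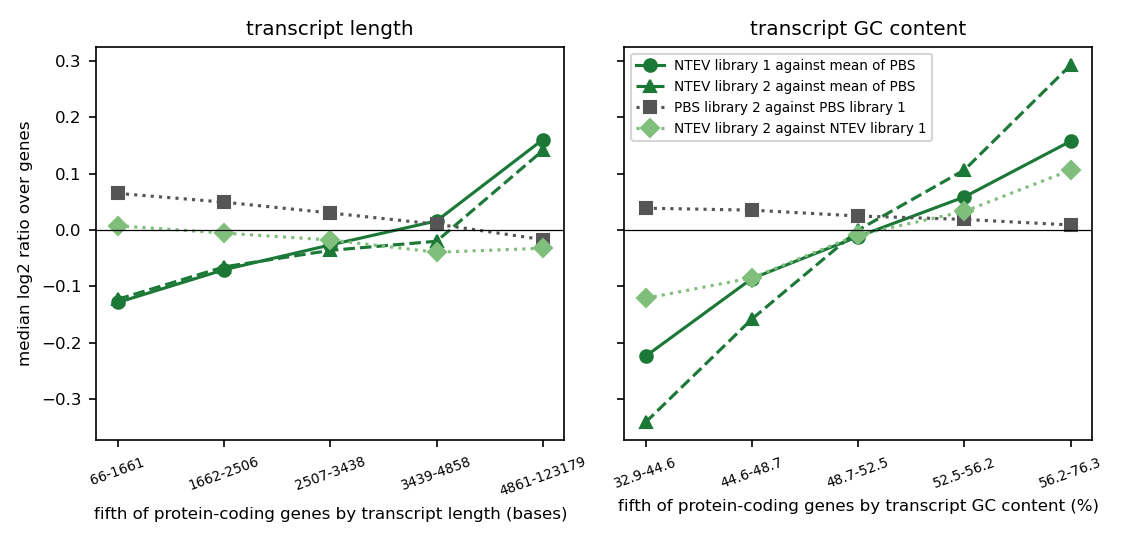
Median log2 ratio over protein-coding genes by quintiles of transcript length in bases (left) and of transcript GC content in percent (right), for each NTEV library against the mean of the PBS libraries and for library 2 against library 1 within each of these groups. Both NTEV lines against PBS climb across length and GC content, the line between the PBS libraries stays between -0.02 and 0.07, and the line between the NTEV libraries climbs from -0.12 to 0.11 over GC content.

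Gene lists drawn up for this tissue and treatment are described next by their counts. Of all protein-coding genes tested 49.2% were higher with NTEVs, the median log2 fold change was -0.01, both NTEV libraries lay above both PBS libraries in 28% and below them in 31.3%, and 9.59% as higher and 8.09% as lower had an unadjusted p under 0.05.

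The list of LINC complex genes and giant cytoskeletal linkers held the most calls. Of 28 genes of the LINC complex (nesprins and SUN proteins, which bridge the nuclear envelope) and other giant linkers, 6 passed, all higher. They were the nesprin gene Syne2 and, of the other giant linkers, Dst, Ahnak, Plec, Dync1h1 and Utrn. In all, unadjusted p-values under 0.05 went with 15 higher and 1 lower, and the list's median was 0.55. The list was drawn up with these rises known, so its number of calls is partly set by that choice. Its median transcript length was 8380 bases.

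Basement membrane genes, which build the sheet under an epithelium, were higher in 21 of 24 tested, 17 of them with no overlap between groups, and 1 passed, Hspg2. The list's median log2 fold change was 0.50. Lama5, the laminin alpha 5 chain, was at 501 and 425 CPM with PBS and 968 and 1408 CPM with NTEVs (1.36 ± 0.25 SE, edgeR adjusted p = 0.0633). Agrn, the heparan sulphate proteoglycan agrin, was at 303 and 278 and 419 and 656 CPM (0.89 ± 0.29 SE, edgeR adjusted p = 0.184). Lamc1, the laminin gamma 1 chain, was at 410.3 and 440.2 and 580.2 and 574 CPM (0.44 ± 0.12 SE, edgeR adjusted p = 0.132). NTEV library 2 was the higher NTEV library in Lama5 and Agrn, and none of these 3 passed. The median transcript length of this list was 6493 bases. Of 28 integrin and adhesion genes 24 were higher (median 0.28), and 2 passed, the plakins Dst and Plec. Among the rest were Lpp, a focal adhesion protein, at 218 and 179.9 CPM with PBS and 364 and 387 CPM with NTEVs (edgeR adjusted p = 0.0558), and Tln1, talin, at 365 and 324 and 529 and 497 CPM (edgeR adjusted p = 0.154).

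Of 27 Notch pathway genes 2 passed, the receptors Notch1 and Notch2, and the list's median was 0.22. Without NTEV library 2 it was 0.12. Ligands bind these receptors, a protease frees the intracellular part, and that part joins Rbpj and a Mastermind coactivator on target genes. The coactivator Maml2 was at 47.8 and 40.6 CPM with PBS and 58.3 and 63.4 CPM with NTEVs, and Maml3 at 23.1 and 20.03 and 28.4 and 34.05 CPM. Neither passed (edgeR adjusted p = 0.212 for each). The groups did not overlap in either, as in 28% of all protein-coding genes in this direction.

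Interferon-stimulated genes lay mostly above PBS without a call. Of 47 type I interferon-stimulated genes 39 were higher, both NTEV libraries were above both PBS libraries in 26, and the median log2 fold change was 0.55. None passed edgeR (18 higher and 0 lower had an unadjusted p under 0.05, and DESeq2 called 11). The median was 0.24 without NTEV library 2 and 0.82 without NTEV library 1. Oasl2, an antiviral protein related to oligoadenylate synthetases, was at 2.29 and 1.82 CPM with PBS and 6.33 and 11.5 CPM with NTEVs (2.102 ± 0.36 SE, edgeR adjusted p = 0.0512). Helz2, a helicase coactivator, was at 40.7 and 39.3 and 79.0 and 114 CPM (1.27 ± 0.24 SE, edgeR adjusted p = 0.0680). Rtp4, an interferon-induced chaperone of receptors, was at 1.26 and 1.43 and 3.73 and 7.54 CPM (2.07 ± 0.43 SE, edgeR adjusted p = 0.0877). Adar, which edits double-stranded RNA, was at 93.7 and 80.8 and 118 and 132 CPM (edgeR adjusted p = 0.142). NTEV library 2 was the higher NTEV library in all 4, which were picked by smallest unadjusted p, and no PBS value reached an NTEV value. With ATEVs Oasl2 was at 100.1 and 100.2 CPM and Rtp4 at 47.5 and 53.1 CPM, above NTEVs in a direct test (edgeR adjusted p = 0.00582 and 0.0175).

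Of 35 interferon gamma-induced genes 26 were higher (median 0.61), and 0 passed edgeR (5 higher and 0 lower had an unadjusted p under 0.05, and DESeq2 called 3). Without NTEV library 2 the median was 0.11. Gbp3, a guanylate-binding GTPase, was at 0.447 and 0.486 CPM with PBS and 1.41 and 1.82 CPM with NTEVs, against 301 and 114 CPM with ATEVs. Class I presentation went neither way. Of 23 genes 13 were higher (median 0.13), and 0 passed edgeR (1 higher and 3 lower had an unadjusted p under 0.05, and DESeq2 called 0). Its median changed sign between NTEV libraries, at 0.32 without library 1 and -0.10 without library 2. The heavy chain gene H2-K1 was at 195 and 190.4 CPM with PBS and 203 and 280.0 CPM with NTEVs, and H2-D1 at 251 and 283 and 258 and 324 CPM. B2m, their light chain, was at 198 and 216 and 139 and 191 CPM, and the peptide transporter subunit Tap1 at 1.15 and 0.608 and 1.31 and 2.49 CPM. The immunoproteasome subunit Psmb8 and the class I transactivator Nlrc5 had 8 and 14 counts over both PBS libraries and 21 and 40 over both NTEV libraries. Cd274, the checkpoint ligand PD-L1, was at 18.5 and 17.7 CPM with PBS and 26.0 and 50.3 CPM with NTEVs (edgeR adjusted p = 0.227). In H2-K1, H2-D1, B2m, Tap1 and Cd274 the difference between the NTEV libraries was large beside the difference between groups.

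Immediate early genes, the transcription factors and feedback phosphatases that answer growth factor and stress signals within minutes to hours, were higher in 27 of 30, the list with the highest median, 0.75, among the lists described here. None passed edgeR (17 higher and 1 lower had an unadjusted p under 0.05, and DESeq2 called 7). Without NTEV library 2 the median was 0.47. Egr1, a zinc finger factor, was at 16.6 and 80.2 CPM with PBS and 287 and 858 CPM with NTEVs (3.57 ± 1.07 SE, edgeR adjusted p = 0.160). Fosb, an AP-1 subunit, was at 8.43 and 91.4 and 372 and 520.1 CPM (3.16 ± 0.95 SE, edgeR adjusted p = 0.159). Jund, another AP-1 subunit, was at 121 and 131 and 249 and 427 CPM (1.42 ± 0.38 SE, edgeR adjusted p = 0.131). The groups did not overlap in these 3 genes, picked by smallest unadjusted p, but PBS library 2 was several times higher than PBS library 1 in Egr1 and Fosb. Klf2, a Krüppel-like factor, was at 8.61 and 13.5 CPM with PBS and 28.6 and 33.7 CPM with NTEVs (edgeR adjusted p = 0.130). In all 3 EV groups Egr1 and Jund were higher in library 2, with Egr1 at 250.5 and 889.8 CPM with ATEVs and 265 and 945 CPM with DNase-pretreated ATEVs.

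Cell cycle genes lay on the other side. Of 30 S phase genes 29 were lower with NTEVs (median -0.67) and in 23 both NTEV libraries lay below both PBS libraries. None passed edgeR (0 had an unadjusted p under 0.05 in either direction, and DESeq2 called 0). The median was -0.28 without NTEV library 2 and -1.22 without NTEV library 1. Rrm2, a subunit of ribonucleotide reductase, was at 324 and 522 CPM with PBS and 296 and 122 CPM with NTEVs (-1.01 ± 0.51 SE, edgeR adjusted p = 0.314). Ccne2, cyclin E2, was at 14.9 and 24.7 and 8.56 and 1.87 CPM (-1.92 ± 1.01 SE, edgeR adjusted p = 0.328). NTEV library 2 was far lower than NTEV library 1 in both, and with ATEVs Rrm2 stood at 407 and 179 CPM, library 2 again the lower. Of 30 genes of G2 and mitosis 27 were lower (median -0.48), and 0 passed edgeR (0 higher and 1 lower had an unadjusted p under 0.05, and DESeq2 called 0). Here it was -0.16 without NTEV library 2 and -0.86 without NTEV library 1. Ccnb1, cyclin B1, was at 108 and 125 CPM with PBS and 77.9 and 44.0 CPM with NTEVs, and Ccna2, cyclin A2, at 343 and 425 and 273 and 136 CPM. The spread between the NTEV libraries in CPM was larger in these genes than the distance from NTEV library 1 to the nearer PBS library. These libraries cannot tell fewer cycling cells from less RNA per cell.

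**Figure D3:**
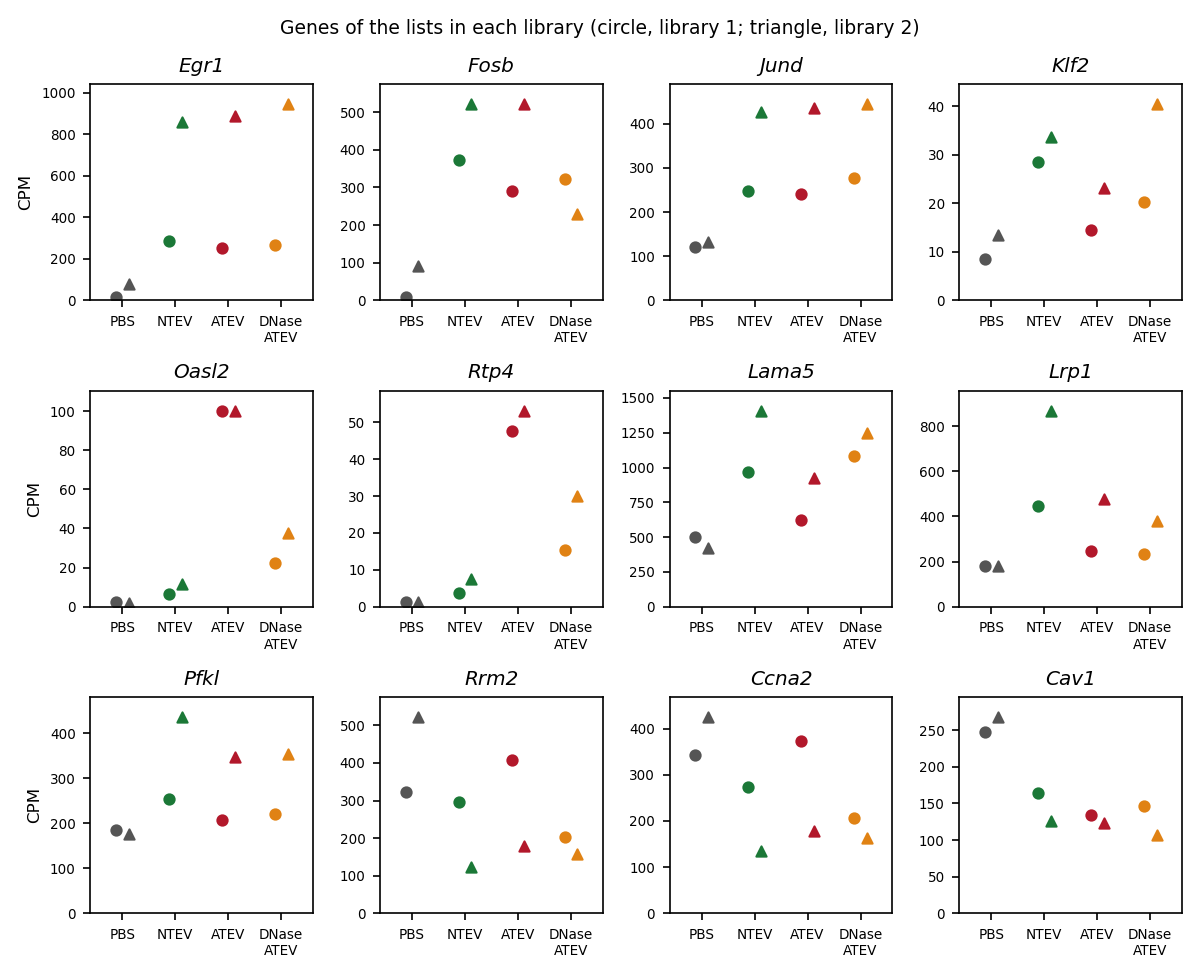
CPM of 12 genes in each of the 8 libraries, with groups on the x axis, circles for library 1 and triangles for library 2. The NTEV libraries lie above PBS in Egr1, Fosb, Jund, Klf2, Oasl2, Rtp4, Lama5, Lrp1 and Pfkl and below it in Rrm2, Ccna2 and Cav1. The 2 NTEV libraries stand apart in Egr1, Lrp1, Rrm2 and Ccna2, and library 2 is also well above library 1 in Jund, Pfkl, Oasl2 and Rtp4. In Oasl2 and Rtp4 this difference is small on the scale of the ATEV values.

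Glycolysis and hypoxia genes were higher in 28 of 30 (median 0.63), and 0 passed edgeR (2 higher and 1 lower had an unadjusted p under 0.05, and DESeq2 called 1). The median was 0.17 without NTEV library 2 and 1.01 without NTEV library 1. Pfkl, liver phosphofructokinase, was at 186 and 176 CPM with PBS and 253 and 436 CPM with NTEVs (edgeR adjusted p = 0.229), and Hif1a, the hypoxia-inducible factor, at 239.5 and 229.7 and 176 and 178 CPM (edgeR adjusted p = 0.138). Ribosomal protein genes lay the other way, with 64 of 80 lower, 48 of them without overlap, and a median of -0.16. Rps29 was the 1 that passed, while 2 higher and 13 lower had an unadjusted p under 0.05. Without NTEV library 1 the median was -0.08. Of 75 nuclear genes of the respiratory chain 60 were lower (median -0.21), and 0 passed edgeR (0 higher and 13 lower had an unadjusted p under 0.05, and DESeq2 called 3). Uqcrc2, a core subunit of complex III, was at 170.1 and 171 CPM with PBS and 123 and 105 CPM with NTEVs (edgeR adjusted p = 0.111). The median transcript length was 837 bases among the ribosomal protein genes and 861 bases among the respiratory chain genes, and both medians lie in the shortest quintile, whose own median was -0.12.

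Of 41 epithelial and pancreatic ductal genes 34 were higher (median 0.27), and 0 passed edgeR (9 higher and 2 lower had an unadjusted p under 0.05, and DESeq2 called 1). Without NTEV library 2 the median was 0.13. Dsp, desmoplakin, was at 237 and 241 CPM with PBS and 371 and 402 CPM with NTEVs (0.69 ± 0.13 SE, edgeR adjusted p = 0.0699), and Gata6, a pancreatic lineage factor, at 58.9 and 64.3 and 76.4 and 81.4 CPM (edgeR adjusted p = 0.208). The ductal keratin Krt19 was at 2331 and 2031 CPM with PBS and 2205 and 2700.5 CPM with NTEVs, and the adhesion molecule Epcam at 18.2 and 15.9 and 18.5 and 26.8 CPM. Of 25 mesenchymal genes 12 were higher (median -0.01), and 0 passed edgeR (1 higher and 3 lower had an unadjusted p under 0.05, and DESeq2 called 1). Trp53, the gene of the tumour suppressor p53, was at 311 and 321 CPM with PBS and 309.8 and 233 CPM with NTEVs (edgeR adjusted p = 0.541). Of 23 targets of YAP and TEAD 19 were higher (median 0.31), and 0 passed edgeR (7 higher and 1 lower had an unadjusted p under 0.05, and DESeq2 called 3). Arhgef17, a guanine nucleotide exchange factor, was at 127 and 111 CPM with PBS and 195 and 206 CPM with NTEVs (edgeR adjusted p = 0.0599).

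Genes of vesicle uptake were divided. Of 35 genes of endocytosis and macropinocytosis 19 were higher (median 0.02), and 0 passed edgeR (5 higher and 4 lower had an unadjusted p under 0.05, and DESeq2 called 2). Without PBS library 1 the median was 0.10, and without PBS library 2 -0.01. Lrp1, a large endocytic receptor, was at 179.6 and 179.6 CPM with PBS and 448 and 868 CPM with NTEVs (1.87 ± 0.43 SE, edgeR adjusted p = 0.102). Igf2r, the sorting receptor of lysosomal enzymes, was at 116 and 121 and 179.9 and 231 CPM (edgeR adjusted p = 0.154), and Rab5a, the early endosome GTPase, at 72.8 and 71.9 and 57.7 and 50.8 CPM (edgeR adjusted p = 0.173). Of 32 lysosomal genes 0 passed edgeR (0 had an unadjusted p under 0.05, and DESeq2 called 0), and the median was 0.11, or -0.04 without NTEV library 2. Of 27 sensors of cytosolic DNA and RNA 0 passed edgeR (4 higher and 1 lower had an unadjusted p under 0.05, and DESeq2 called 1), and the median was 0.01. Ikbke, a kinase that acts on interferon regulatory factors, was at 20.4 and 23.6 CPM with PBS and 28.2 and 39.2 CPM with NTEVs, and the RNA sensor Ifih1 at 16.8 and 12.3 and 18.2 and 24.4 CPM. The groups did not overlap in Lrp1, Igf2r, Rab5a, Ikbke or Ifih1, which were picked by smallest unadjusted p. Of all protein-coding genes, 28% had both NTEV libraries above both PBS libraries and 31.3% below them.

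Stress lists lay on both sides of 0. Of 30 genes of ATF4 and the unfolded protein response 25 were lower (median -0.32), and 0 passed edgeR (3 higher and 0 lower had an unadjusted p under 0.05, and DESeq2 called 0). The median was -0.16 without NTEV library 2 and -0.51 without NTEV library 1. Atf3, a stress factor, was at 16.2 and 51.4 CPM with PBS and 114 and 230.3 CPM with NTEVs, against the direction of its list. Of 21 heat shock chaperones 16 were lower (median -0.35), and 0 passed edgeR (2 higher and 3 lower had an unadjusted p under 0.05, and DESeq2 called 3). The median was -0.24 without NTEV library 2. Chordc1, a partner of Hsp90, was at 91.5 and 104 and 56.7 and 40.1 CPM, and the inducible chaperone Hspa1a at 2.25 and 2.58 and 4.91 and 4.18 CPM. Of 34 NF-kB targets and cytokines 24 were higher (median 0.20), and 0 passed edgeR (3 higher and 0 lower had an unadjusted p under 0.05, and DESeq2 called 1). It was 0.43 without PBS library 2 and 0.38 without NTEV library 1. Nfkbiz, a nuclear cofactor of NF-kB, was at 43.8 and 47.8 CPM with PBS and 74.6 and 93.6 CPM with NTEVs (edgeR adjusted p = 0.116).

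**Figure D4:**
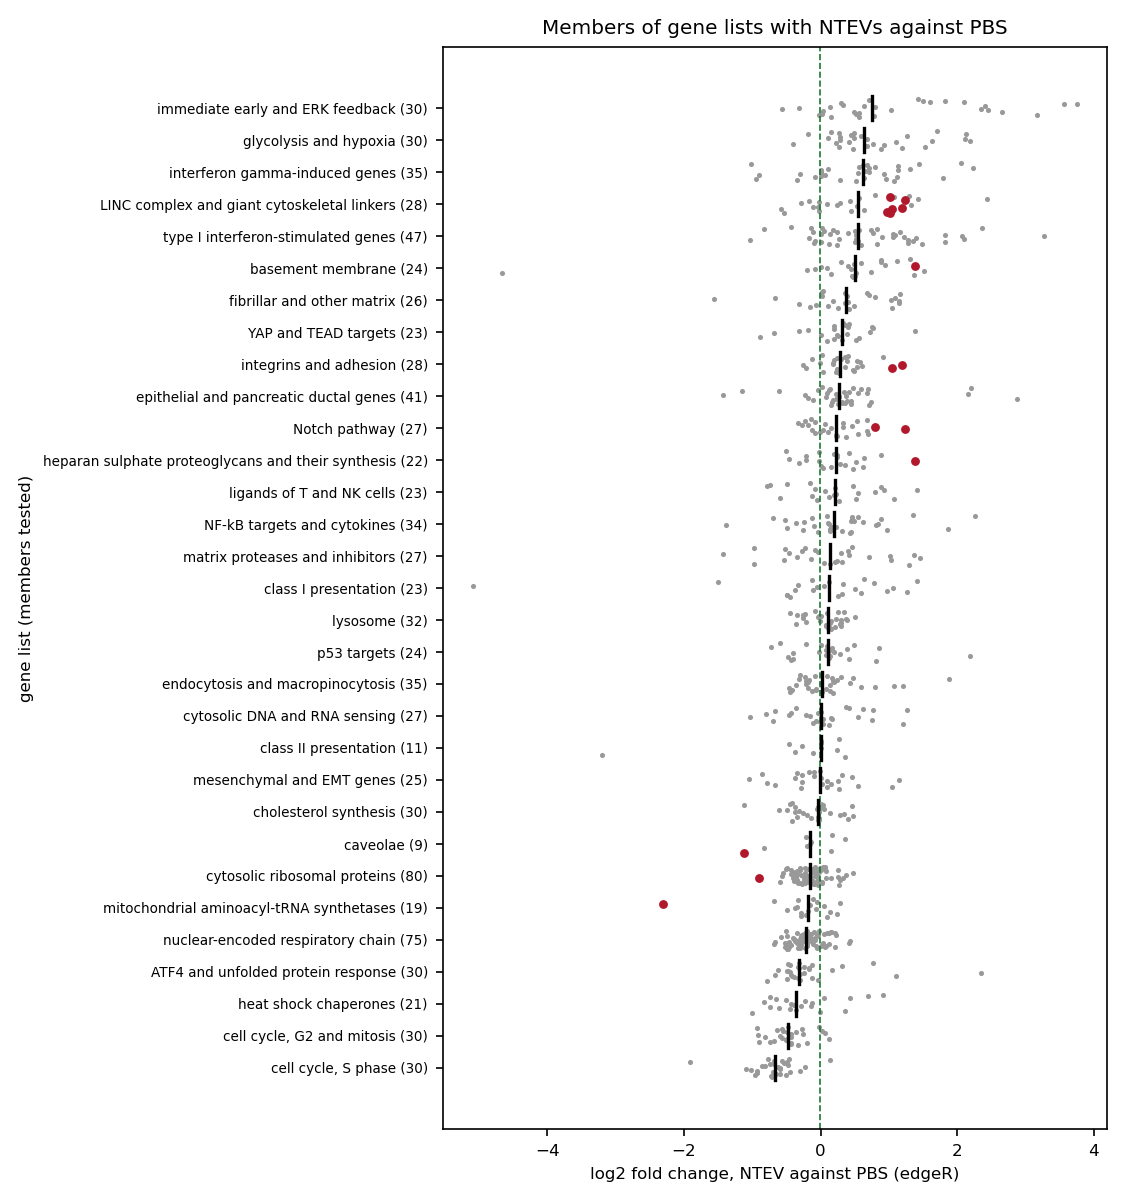
Log2 fold change of each tested list member with NTEVs against PBS, in rows by list with the number tested, where red points passed edgeR, grey points did not, black bars are list medians and the dashed line is the median of protein-coding genes. The 2 cell cycle lists lie lowest, at -0.67 and -0.48, and the immediate early list highest, at 0.75, with no red point in these 3 rows.

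Direct tests set NTEV cells against the other EV groups. Of the 49 named genes 1 differed between ATEVs and NTEVs by edgeR, where 1.19% of all genes tested did (1.05% higher and 0.145% lower), while 1 higher and 21 lower had an unadjusted p under 0.05 and DESeq2 called 11. It was Syne2, at 72.4 and 76.8 CPM with ATEVs, which is lower than with NTEVs (log2 fold change -0.85 ± 0.13 SE, edgeR adjusted p = 0.0321). Against DNase-pretreated ATEVs 0 of the 49 differed by edgeR, where 0.0526% of all genes did (0.0461% higher and 0.00658% lower), while 2 higher and 18 lower had an unadjusted p under 0.05 and DESeq2 called 4. Over the 38 rises the median log2 fold change was -0.35 for ATEVs against NTEVs and -0.33 for DNase-pretreated ATEVs against NTEVs, and over the 11 falls it was -0.10 and 0.04. These comparisons share the NTEV libraries, and the 49 genes were chosen for NTEV values away from PBS. A shift back toward PBS in these medians and counts is therefore partly built in by the choice. Lars2 stood at 159 and 186 CPM with ATEVs and 158 and 157 CPM with DNase-pretreated ATEVs, and Hspg2 at 473 and 576 CPM and 623 and 515 CPM. The low level of Lars2 was thus measured in all 6 libraries with EVs, whereas Hspg2 was highest in the 2 NTEV libraries.

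Pseudogenes, copies of genes that mostly arose by reverse transcription of an mRNA, gave most of the calls. Of 1148 tested 104 passed, which is 9.06%, and 55 were higher (4.79%) and 49 lower (4.27%) with NTEVs. A parent gene, the named gene whose transcript each copy resembles most, was matched for all but 2 of the 104. Copies of Gapdh, the glycolytic enzyme glyceraldehyde-3-phosphate dehydrogenase, made up 44 of the calls (39 higher and 5 lower, of 166 tested). Copies of ribosomal protein genes made up 28 (7 higher and 21 lower, of 365 tested) and copies of mitochondrial genome genes 7, all lower (of 13 tested). Of the 95 with a tested parent gene, 0 had a parent that passed edgeR. Over the 38 parent genes 1 higher and 12 lower had an unadjusted p under 0.05, and DESeq2 called 4.

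Gapdh itself did not pass, at 2811 and 2785 CPM with PBS and 2163 and 2766 CPM with NTEVs (log2 fold change -0.18, edgeR adjusted p = 0.520). Its 256 copies in the table took 5.27% and 4.53% of the counts of Gapdh and its copies with PBS and 12.3% and 12.7% with NTEVs. With ATEVs the share was 12.9% and 12.7%, and with DNase-pretreated ATEVs 16.02% and 15.1%. The PBS libraries were thus low and the 6 EV libraries high. Rises and falls were spread unequally over classes of identity to Gapdh. These classes hold all 171 copies tested, the 166 pseudogenes and some predicted protein-coding genes, among them Gm12117, which passed as higher. Among copies of at least 99% identity 2 passed as higher and 4 as lower (median log2 fold change -1.09, 25 tested), while among those from 94% to under 97% identity 17 passed as higher and 0 as lower (median 1.77, 38 tested). From 97% to under 99% identity 6 passed as higher and 0 as lower (median 1.35, 19 tested), and under 94% 15 passed as higher and 1 as lower (median 1.29, 89 tested). The 1 lower copy under 94% was Gm4960, picked out after its values were seen, at 87.6% identity, 1.28 and 1.37 CPM with PBS and 0.0195 and 0 CPM with NTEVs.

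A stretch of 100 bases shows the difference between these copies. It covers coding bases 718 to 817 of Gapdh, within 1 exon at chr6:125162489-125162588 on the minus strand, and was chosen as the window where the copies differ most from Gapdh. The pseudogene Gm15593 holds it at chr6:18145380-18145479 on the plus strand, Gm13464 at chr2:43518660-43518759 on the minus strand and Gm2606 at chr15:12575528-12575627 on the plus strand. The sequences and positions are those of GENCODE M21 on GRCm38, while the processing notes name mm9 for the counts. Capitals mark bases that differ from Gapdh.
Gapdh: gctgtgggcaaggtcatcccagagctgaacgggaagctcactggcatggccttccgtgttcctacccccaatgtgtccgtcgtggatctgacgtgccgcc
Gm15593: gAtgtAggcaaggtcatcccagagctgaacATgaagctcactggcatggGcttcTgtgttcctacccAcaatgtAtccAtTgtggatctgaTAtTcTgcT
Gm13464: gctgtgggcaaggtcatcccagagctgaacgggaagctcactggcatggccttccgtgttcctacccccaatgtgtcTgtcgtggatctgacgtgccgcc
Gm2606: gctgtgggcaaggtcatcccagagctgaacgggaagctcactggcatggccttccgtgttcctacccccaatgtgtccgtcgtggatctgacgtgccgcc
Gm15593 has 15 differences in this window and an identity of 92.0% over its length, and was at 0.253 and 0.152 CPM with PBS and 7.62 and 8.66 CPM with NTEVs (log2 fold change 5.26 ± 0.30 SE, edgeR adjusted p = 0.00163). Gm13464 has 1, C78T counted from the first base shown, and an identity of 99.2% over its length, and was at 0.719 and 0.425 and 13.1 and 13.7 CPM (4.51 ± 0.33 SE, edgeR adjusted p = 0.00368). Gm2606 has 0 in this window and an identity of 99.9% over its length, and was at 8.04 and 8.63 and 0.410 and 1.05 CPM (-3.53 ± 0.47 SE, edgeR adjusted p = 0.0255). A read that lies within this window matches Gapdh and Gm2606 equally. How reads with several matches were handled, and whether it was the same in all libraries, is not given in the sources used here.

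Other rises among pseudogenes included Gm12969, a Gapdh copy at 0.117 and 0.182 CPM with PBS and 3.38 and 4.63 CPM with NTEVs, and Gm7833, another, at 0.214 and 0.182 and 3.81 and 4.85 CPM. Gm6794, a copy of the ribosomal protein gene Rps18, was at 0.136 and 0.0608 CPM with PBS and 2.85 and 3.41 CPM with NTEVs. Among called pseudogenes with a mean of at least 2 CPM, the limit that these rises also met, the largest falls were copies of the mitochondrial cytochrome oxidase genes. Some pseudogenes of lower abundance had larger fitted rises or falls. Gm28661, a full copy of mt-Co2 on chromosome 1, was at 36.2 and 17.7 CPM with PBS and 0.332 and 0.299 CPM with NTEVs. Gm28437, a copy of mt-Co3 on the same chromosome, was at 24.3 and 10.8 and 0.215 and 0.199 CPM, and Gm29216, a copy of mt-Co1 there, at 17.6 and 8.57 and 0.0391 and 0.572 CPM. In all 3 the PBS libraries held nearly all of the counts. Gm13341, an mt-Co2 copy on chromosome 2, went from 16.1 and 7.99 to 0.723 and 0.697 CPM. The 17 such copies in the table summed to 166 and 82.0 CPM with PBS, 8.80 and 3.81 CPM with NTEVs and 2.94 to 7.54 CPM in the other 4 libraries. The count table lists 0 genes of the mitochondrial genome itself, so the level of their true transcripts is not measured here.

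Copies of other abundant genes fell. Gm13050, a copy of the elongation factor gene Eef2, was at 34.5 and 30.2 CPM with PBS and 1.603 and 1.82 CPM with NTEVs, while Eef2 was at 4584 and 4121 and 4744 and 5380.2 CPM. Gm7665, a copy of the calcium-binding protein gene S100a11, was at 25.9 and 21.03 and 2.33 and 1.24 CPM, and S100a11 at 1288 and 1158 and 731 and 666 CPM (edgeR adjusted p = 0.0715). For Rps2, a ribosomal protein gene with 61 copies in the table, the copies took 2.02% and 1.72% of the counts with PBS and 0.770% and 0.800% with NTEVs. Between ATEVs and NTEVs 0 of the 104 pseudogenes differed by edgeR, while 3 higher and 1 lower had an unadjusted p under 0.05 and DESeq2 called 0. Between DNase-pretreated ATEVs and NTEVs it was 0, with 6 higher and 0 lower and 0 by DESeq2. Of all genes tested 1.19% and 0.0526% passed edgeR in these 2 comparisons, so 0 calls among 104 genes lies near the share over all genes. The counts at these copies set the PBS libraries apart from all 6 EV libraries, and what they differ with was not tested. With the counts of copies added to their parent genes 6 genes passed in all, among them Lars2 and Vamp7. Protein-coding genes with a near-identical copy passed in 12 of 2265 cases (0.530%) and those without one in 41 of 10473 (0.391%).

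**Figure D5:**
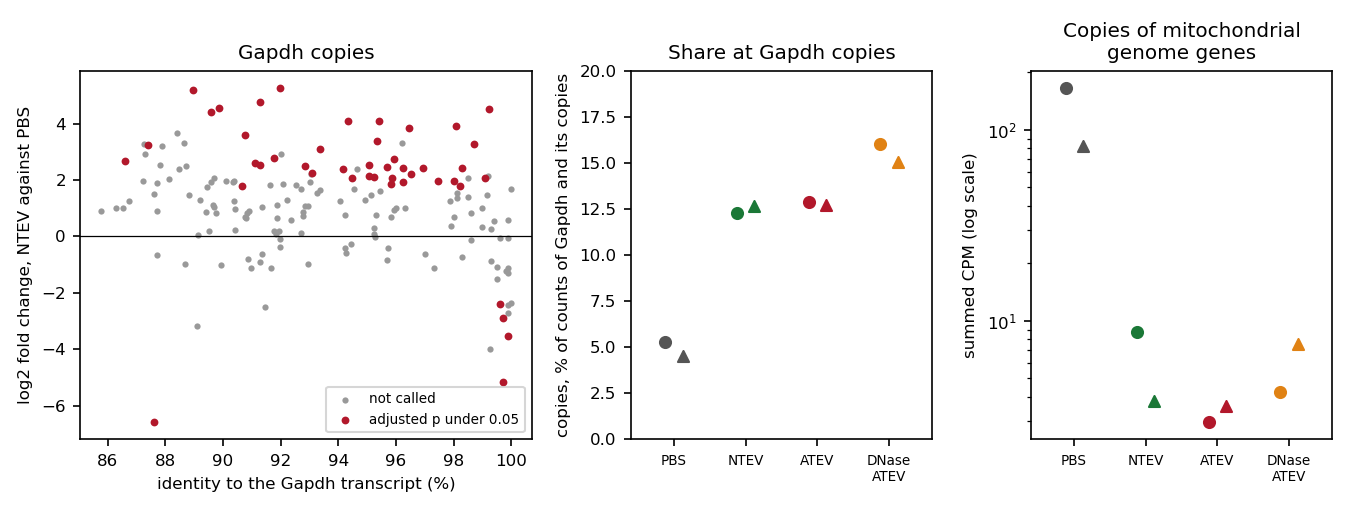
Left, log2 fold change with NTEVs against PBS of each tested Gapdh copy by its percent identity to the Gapdh transcript, with red points at an edgeR adjusted p under 0.05. Middle, the percent of counts of Gapdh and its copies that fell on copies, and right, the summed CPM of copies of mitochondrial genome genes on a log axis, in each of the 8 libraries (circles, library 1; triangles, library 2), where the 2 PBS libraries stand apart from the other 6.

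Long noncoding RNA genes passed in 11 of 1272 cases (0.865%), 10 of them higher (0.786%) and 1 lower (0.0786%) with NTEVs. All 11 carry provisional names. Gm26909 had 0 counts in both PBS libraries and was at 1.27 and 1.39 CPM with NTEVs, and Gm10252 was at 0.0194 and 0.0608 CPM with PBS and 2.42 and 1.52 CPM with NTEVs (edgeR adjusted p = 0.0246 and 0.0129). These 2 were noticed after their values were seen. Malat1, an abundant nuclear RNA, was at 60.1 and 60.7 CPM with PBS and 257 and 379 CPM with NTEVs (2.40 ± 0.51 SE, edgeR adjusted p = 0.0895), and did not pass.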

How the data were processed

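RNA sequencing of 8 libraries, 2 per group, was deposited as a table of whole-number counts per gene. Per the labels' protocols the mRNA libraries were stranded. The tools in the submitters' processing notes, given without role or order, are TopHat2 2.0.11, TopHat, Cufflinks 2.1.1 and bcl2fastq 2.19, and the build there is mm9. For the counter, the strand option and the annotation nothing is given in the sources used here, so values of overlapping, antisense and near-identical genes are uncertain.

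Counts as the authors deposited them were tested in R 4.3.3 with edgeR 4.0.16 (expression filter by group, trimmed mean of M-values scaling, quasi-likelihood test, 1 mean per group over all 8 libraries, Benjamini-Hochberg adjustment over 15197 genes, threshold 0.05, two-sided). The 4 residual degrees of freedom come from all groups, which share the spread. With 2 libraries against 2, an exact permutation test of a single value cannot fall below 0.333. Group and replicate came from the library titles. Replicates differed by more than sampling noise (chi-square per gene 39.0 between the PBS and 92.0 between the NTEV libraries over genes with at least 20 counts). CPM values are scaled by library size and TMM factor, and a log2 fold change is edgeR's. SE was derived as the absolute log2 fold change divided by the square root of the F statistic of the quasi-likelihood test. It is therefore approximate, above all for genes with few counts. Figures add 0.1 CPM before taking logs.

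Names, classes, transcript length and GC content came from GENCODE M21, which matched 42329 of the 42687 identifiers. A pseudogene's parent was its best blastn 2.17.0 match of at least 85% identity over at least 50% of its length. A near copy is another gene that matches at least 100 coding bases at 95% identity or more. The script was tested on simulated counts.

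Named protein-coding genes are those with a symbol that passed, with a log2 CPM of 1 or more on average and no overlap between groups; per-library values are given for the 12 largest rises and for every fall. Each list gives up to 4 members of smallest p, pseudogenes the 6 largest rises and falls under the same limits, and 12 genes are always given, except for some that are not reported here. The lists and genes were chosen with earlier results of these data known. Alternatives included DESeq2 1.42.0, other filters, a replicate block, offsets and leaving out each library; offsets used mgcv 1.9.3.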

Additional observations from a re-analysis of the deposited data

How the results depend on the processing

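None of the 49 named protein-coding genes changed direction under any alternative that gave it a value. These 49 were chosen for no overlap between groups, which largely fixes the direction when 1 library is left out. List medians near 0 changed sign when 1 library was left out (class I, caveolae, endocytosis, lysosome, mesenchymal, p53 and cholesterol genes and 3 lists of other cell types). Against the 169 genes, 53 protein-coding genes and 104 pseudogenes that passed with NTEVs, DESeq2 called 983, 704 and 217, and edgeR without a filter on low counts 773, 476 and 230. A mean of at least 1 CPM left 67 pseudogenes. Protein-coding genes fitted alone gave 1 call. Offsets for transcript length and GC content gave 100 genes in all, 6 of them protein-coding. Leaving out 1 library gave 5 to 27 genes in all, 0 to 1 protein-coding genes and 5 to 24 pseudogenes, and the cause of these shifts was not tested beyond the smaller number of libraries. In alternatives added after the data were seen, copies summed with their parent genes gave 6 calls, 2 of them protein-coding, and protein-coding genes without a near copy gave 1. ATEVs against NTEVs gave 181 calls, and 477 by DESeq2, 459 without a filter, 56 from the libraries of both groups alone, 98 without near copies and 62 to 158 without 1 library. DNase-pretreated ATEVs against NTEVs gave 8, and 198 by DESeq2, 180 without a filter, 2 from the libraries of both groups alone and 1 to 5 without 1 library. Spearman's rho of the log2 fold change with GC content ran from 0.330 to 0.408 without 1 library.

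The replicate number was shared by groups, and same-numbered libraries deviated together between NTEVs and ATEVs (correlation 0.529) but in opposite directions between NTEVs and PBS (-0.236), so the numbers are not shown to pair samples in the comparison with PBS. With a replicate block edgeR called 330 genes, 184 of them protein-coding, for NTEVs against PBS and 24 for DNase-pretreated ATEVs against NTEVs. With the block and the length and GC offsets it called 32 protein-coding genes and 16 for DNase-pretreated ATEVs. With the PBS numbers crossed in the replicate block, also added later, it called 3567 genes, 3075 of them protein-coding and 358 pseudogenes. Counts of 16 or fewer in a group, as for Fam57b with PBS, limit the precision of a fold.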

Other observations

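Some gene groups outside the main account held members that stood apart from PBS without passing edgeR. Of 23 ligands of T and NK cells 15 were higher with NTEVs (median log2 fold change 0.21), and 0 passed edgeR (3 higher and 2 lower had an unadjusted p under 0.05, and DESeq2 called 2). Lgals1, galectin-1, a secreted lectin that binds T cells, was at 1083 and 1086 CPM with PBS and 688 and 569 CPM with NTEVs (edgeR adjusted p = 0.125). Of 26 genes of fibrillar and other matrix 21 were higher (median 0.37, and 0.08 without NTEV library 2), and 0 passed edgeR (3 higher and 0 lower had an unadjusted p under 0.05, and DESeq2 called 2). Ltbp3, which binds latent TGF-beta, was at 304 and 231 and 459.9 and 719.9 CPM. Of 22 genes of heparan sulphate proteoglycans and their synthesis 1 passed, Hspg2 (median 0.22), and Ndst1, a sulphotransferase of this pathway, was at 109 and 98.3 and 142 and 135 CPM. Of 27 matrix proteases and inhibitors 0 passed edgeR (1 higher and 4 lower had an unadjusted p under 0.05, and DESeq2 called 1). Serpinb5, maspin, was at 28.4 and 27.6 CPM with PBS and 16.05 and 12.4 CPM with NTEVs (edgeR adjusted p = 0.0751). Its groups did not overlap, as in 31.3% of all protein-coding genes in this direction.

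Of 24 p53 targets 0 passed edgeR (2 higher and 4 lower had an unadjusted p under 0.05, and DESeq2 called 3), and Bbc3, the apoptosis gene PUMA, was at 8.86 and 8.84 CPM with PBS and 13.2 and 17.7 CPM with NTEVs. Of 30 cholesterol synthesis genes 0 passed edgeR (2 higher and 3 lower had an unadjusted p under 0.05, and DESeq2 called 2). The regulator Srebf2 was at 542 and 542 CPM with PBS and 725 and 787 CPM with NTEVs, while the pathway enzyme Idi1 was at 22.5 and 40.6 and 16.9 and 12.0 CPM. Of 11 class II presentation genes 0 passed edgeR (0 had an unadjusted p under 0.05, and DESeq2 called 0). Xist, the RNA that coats the inactive X chromosome, was at 299 and 324 CPM with PBS and 546 and 727 CPM with NTEVs, and at 1269 and 2428 CPM with DNase-pretreated ATEVs. Of the cell types that should be absent, 11 myeloid and B cell markers summed to 104 and 70.3 CPM with PBS and 109 and 127 CPM with NTEVs, 11 fibroblast and endothelial markers to 6.20 and 4.10 CPM and 6.04 and 10.1 CPM, and 8 acinar and islet markers to 1.73 to 2.46 CPM over these 4 libraries. Of these, 4, 3 and 5 markers had no count in any of the 4 libraries, among them Ms4a1 and Adgre1, Dcn, Lum and Fap, and Ins1, Ins2 and Ptf1a. Most of the myeloid sum was Cd14, at 99.7 and 67.1 CPM with PBS and 105 and 121 CPM with NTEVs, a gene that epithelial cells can also express.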
